A study of Mus musculus with 6 samples.

Results

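CTCF binding was described around 9 immediate early genes (Fos, Fosb, Jun, Junb, Ier2, Jund, Egr1, Atf3 and Myc) in muscle stem cells of the mouse. The members are the listed CTCF peaks whose midpoint lay in 8 ranges of the mm9 genome drawn around these genes. Junb and Ier2 share a range of 1.3 Mb, and the other ranges are 1 Mb long. The ranges cover 8.3 Mb and hold 332 of the 36923 listed peaks, 165 of 19403 in quiescent cells and 167 of 17520 in freshly isolated cells. The members were chosen by position and not by any property of a peak, though earlier results of these data were known at the time.

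The data come from CTCF ChIP-seq, in which DNA bound by the protein is recovered with an antibody and sequenced. All cells were satellite cells, which are muscle stem cells that express Pax7, from C57BL/6 mice with the Pax7-nGFP reporter, at postnatal day 38. The 2 groups were quiescent muscle stem cells (QSC) and freshly isolated muscle stem cells (FISC), each with 2 ChIP libraries and 1 input library, and each represented by 1 deposited peak list. No value therefore has a replicate error, the depth behind the lists is unknown, and each comparison is between 2 lists. Peaks of the 2 lists that overlap, if only by 1 bp, are called shared, and the rest QSC-only or FISC-only (together, state-only). CTCF may be bound where a list has no peak, since a list shows only what was called. The lists hold no expression values, so the cell type was not checked against marker genes.

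Immediate early genes are transcribed soon after a stimulus, without the need for newly made protein. Most of the 9 encode transcription factors. Proteins of the Fos and Jun families pair through leucine zippers to form AP-1, and Atf3 is a stress-induced relative that pairs with Jun proteins. Egr1 is a zinc finger factor, and Myc drives growth and proliferation. Taking satellite cells out of the muscle is itself known to induce such genes. CTCF is a zinc finger protein that halts cohesin at the bases of chromatin loops, which can set which enhancers reach a promoter.

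The promoters of 6 of the 9 genes were found in a RefSeq table of build GRCm38.p6, those of Fos, Fosb, Jun, Junb, Jund and Atf3. The 250 bases before the start of 3 of them are printed as examples, because AP-1 proteins and their relatives are known to act on such promoters, those of their own genes included. They run 5′ to 3′ on the gene's own strand, which is the plus strand for Fos and the minus strand for Jun and Atf3. Capitals mark TGACG, the core of the cAMP response element, or TGACATCA, an AP-1-like element, on either strand.
Fos: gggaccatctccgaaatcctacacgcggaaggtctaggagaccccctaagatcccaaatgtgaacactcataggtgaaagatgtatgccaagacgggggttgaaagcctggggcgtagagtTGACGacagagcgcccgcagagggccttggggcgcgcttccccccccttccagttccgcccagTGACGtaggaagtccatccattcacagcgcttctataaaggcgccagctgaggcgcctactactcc
Jun: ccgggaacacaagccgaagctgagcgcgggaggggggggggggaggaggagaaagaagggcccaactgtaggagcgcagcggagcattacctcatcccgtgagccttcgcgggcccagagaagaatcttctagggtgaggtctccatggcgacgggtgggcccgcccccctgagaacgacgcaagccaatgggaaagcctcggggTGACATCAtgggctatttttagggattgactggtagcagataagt
Atf3: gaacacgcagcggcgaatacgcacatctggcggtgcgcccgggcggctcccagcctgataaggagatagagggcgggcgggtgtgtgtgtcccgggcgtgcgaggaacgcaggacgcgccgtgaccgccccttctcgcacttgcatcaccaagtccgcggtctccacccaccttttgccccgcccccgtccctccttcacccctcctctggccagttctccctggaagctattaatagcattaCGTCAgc
TGACG was found in 4 of the 6 promoters (Fos, Fosb, Junb and Atf3) and in 17.8% of the 32851 promoters of the table. TGACATCA was found in 1 of the 6, that of Jun, and in 2.93% of all promoters. Neither was found in the promoter of Jund. A core of the CTCF consensus motif was found on neither strand in any of the 6 promoters, and in 2.08% of all promoters. Only this core was in the planned search. TGACG and TGACATCA were added as elements known from such promoters, and enrichment was not tested. The Fos promoter held TGACG in 2 places, and the match in Atf3 is on the opposite strand, where it reads CGTCA. A match is a description of letters and not a site, and the lack of a match says only that these letters are not in this window. The peaks are in another build than the promoters, so whether a peak lies on a promoter was not analysed here.

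The ranges around the immediate early genes were mostly rich in CTCF peaks. Pooled, they had a larger share of shared peaks than the whole lists, with the Fosb and Jund ranges holding most of the shared sites. Of the QSC members, 92 of 165 (55.8%, 95% Wilson interval 48.1 to 63.1) had a FISC partner, where the background over all QSC peaks was 37.8%. Of the FISC members, 92 of 167 (55.1%, 47.5 to 62.4) had a QSC partner, where the background over all FISC peaks was 41.8%. In the 6 ranges other than Fosb and Jund, a choice made after seeing the data, 38 of 89 QSC peaks (42.7%, 32.9 to 53.1) and 38 of 86 FISC peaks (44.2%, 34.2 to 54.7) were shared, and both intervals include the background. Below the background in the QSC list lay the Jun range at 14.3% (1 of 7, 2.57 to 51.3) and the Myc range at 10% (1 of 10, 1.79 to 40.4). Below it in the FISC list lay the Jun range at 14.3% (1 of 7, 2.57 to 51.3) and the Atf3 range at 33.3% (7 of 21, 17.2 to 54.6). Each of these intervals includes the background of its list. The members formed 240 sites, of which 92 were shared, 73 QSC-only and 75 FISC-only. The intervals cover counting error only.

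Over the whole genome sharing was also more frequent in windows with more peaks, and the part of density in the shares above was not tested. In a grid of 2589 windows of 1 Mb, QSC peaks were shared in 11.4% of cases in windows with 1 to 10 peaks of both lists together. This share was 35.4% at 11 to 20 peaks, 51.8% at 21 to 40, and 63.6% in the 109 windows with 41 or more. For FISC peaks the rise was smaller, with 25.5%, 39.3%, 45.0% and 51.0% shared in the same classes. The FISC-only share of state-only peaks was higher too, from 27.3% in the sparsest of these classes to 62.6% in the densest. A shared site counts in both lists in the total that sets the class, so sharing itself moves a window towards a denser class. The median window held 6 QSC and 5 FISC peaks. In total peaks per Mb, 7 of the 8 ranges lay above the median of 11, and the Myc range equalled it.

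**Figure D1:**
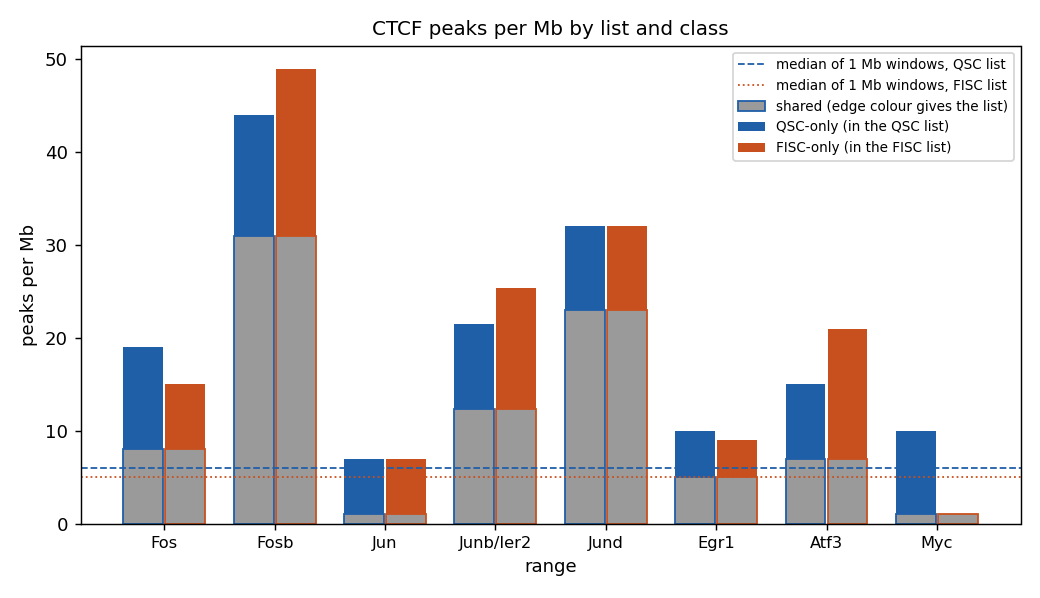
CTCF peaks per Mb (vertical axis) in each of the 8 ranges (horizontal axis), with the QSC list as the left bar and the FISC list as the right bar. Grey parts are shared peaks, coloured parts are peaks of that list only, and the horizontal lines are the medians of all 1 Mb windows, 6 for QSC and 5 for FISC. The Fosb range is the tallest, and the Myc range has 10 QSC peaks and 1 FISC peak.

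The Fos range (chromosome 12, 86.3 to 87.3 Mb) held 19 QSC and 15 FISC peaks. Fos is the prototype immediate early gene and the usual partner of Jun. In the gene order of GRCm38.p6 its next protein-coding neighbours on one side are Jdp2 and Batf, which encode AP-1 partners too. Of the QSC peaks 8 were shared and 11 were QSC-only, and of the FISC peaks 8 were shared and 7 FISC-only. As many QSC peaks were found in 4.06% of the grid windows, and as many FISC peaks in 12.9%. Most of the central sites were shared, with a group of 3 sites between 86828653 and 86838096 made of a FISC-only peak and 2 shared sites, 28.8 to 37.9 kb to the right of the centre. The last of them, 534 bp from 86837563 to 86838096, was the widest shared site of the range. The widest QSC-only peak of all 8 ranges also lay here, 494 bp from 86567975 to 86568468. The widest FISC-only peak measured 431 bp, from 86687282 to 86687712. Neither list had a peak in the first 133 kb of the range. No FISC peak was listed for 221 kb from 86849586 to 87070352, a stretch in which QSC had 4 peaks.

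Fosb, which encodes a Fos relative, had the densest range (chromosome 7, 19.4 to 20.4 Mb), with 44 QSC and 49 FISC peaks. No window of the grid held as many QSC peaks, and 0.0386% held as many FISC peaks. In each list 31 of these peaks were shared, or 63.3% of the FISC peaks (95% Wilson interval 49.3 to 75.3) and 70.5% of the QSC peaks (55.8 to 81.8). The remaining peaks were 13 QSC-only and 18 FISC-only. State-only peaks lay close to shared ones, at a median of 5.21 kb for QSC-only and 5.68 kb for FISC-only peaks. The largest groups of neighbouring sites, each under 10 kb from the next, were 2 groups of 5 sites. The group from 19716800 to 19743345 held 2 shared, 2 QSC-only and 1 FISC-only site, and that from 20370110 to 20388701 held 2 shared, 0 QSC-only and 3 FISC-only sites. The widest shared site ran over 1018 bp from 19946507 to 19947524, where a QSC interval of 484 bp and a FISC interval of 618 bp overlapped only at their ends. The widest QSC-only peak measured 348 bp (20055579 to 20055926) and the widest FISC-only peak 471 bp (20254738 to 20255208). The longest stretch with no peak in either list was 65.1 kb, the shortest such maximum of the 8 ranges.

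The Jun range (chromosome 4, 94.2 to 95.2 Mb) held 7 peaks in each list, and only 1 site was shared. Jun is the main DNA-binding partner in AP-1. The shared site ran from 94493897 to 94494523, with a QSC width of 446 bp and a FISC width of 407 bp, at -206 kb from the centre. The 6 QSC-only peaks were spread from 94315037 to 95044524, none of them within 10 kb of another QSC peak, and the widest measured 352 bp (94820202 to 94820553). Of the 6 FISC-only peaks, 4 lay within 3.49 kb, from 94716715 to 94720208, with widths of 299, 311, 386 and 280 bp. They lay 16.9 to 20.1 kb to the right of the centre, and no QSC peak lay among them. The nearest QSC peak was the QSC-only peak from 94669915 to 94670161, and a further FISC-only peak ran from 94674900 to 94675279. The longest stretch with no peak in either list was 216 kb, from 94827996 to 95044275.

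Such tight groups of peaks from a single list were rare. Groups of at least 4 FISC-only peaks with gaps under 2 kb and no QSC peak between them numbered 3 in the whole genome, and the Jun group was 1 of them. With at least 3 peaks there were 15, of which the Jun group was again the only group in the ranges. There was 1 QSC-only group of at least 4 peaks in the genome and 0 in the ranges. With gaps under 5 kb the numbers of groups of at least 4 peaks were the same, 3 and 1. Pairs or larger groups numbered 269 for FISC-only peaks, 4 of them in the ranges (2 around Fosb, and 1 each around Jun and Atf3). For QSC-only peaks they numbered 122, of which 0 lay in the ranges (with gaps under 5 kb, 278 and 1, around Fosb). The definition of these groups was chosen after the Jun group was seen, and no test was made of it.

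Junb, a Jun relative that can temper the activity of Jun, and Ier2, a small nuclear immediate early protein, share a range on chromosome 8 (86.7 to 88 Mb). It held 28 QSC peaks (21.5 per Mb) and 33 FISC peaks (25.4 per Mb), and 2.12% and 2.51% of the grid windows reached these densities. In each list 16 peaks were shared, with 12 QSC-only and 17 FISC-only peaks. The widest shared site ran from 87513648 to 87514670 (1023 bp). Its FISC interval spanned all of it and its QSC interval was 850 bp wide. Around it, from 87461225 to 87537460, the FISC list had 7 FISC-only peaks, a second shared site began at 87498142, and no QSC-only peak was listed. The 7 began at 87461225, 87469461, 87480646, 87499289, 87521838, 87531579 and 87537144. A group of 5 sites from 87115862 to 87126677 held 1 shared, 2 QSC-only and 2 FISC-only sites. The widest FISC-only peak of all 8 ranges ran from 86710166 to 86710789 (624 bp), next to a shared site that began at 86711107. The widest QSC-only peak ran from 87362087 to 87362528 (442 bp). Neither list had a peak for 218 kb from 87601391. From there FISC had no peak for 399 kb up to the end of the range, and QSC had 2 there.

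The Jund range (chromosome 8, 72.7 to 73.7 Mb) held 32 peaks in each list, and 0.116% of the grid windows held as many QSC peaks and 0.541% as many FISC peaks. Jund is the Jun relative that is commonly present in resting cells. In each list 23 of the 32 peaks were shared (71.9%, 95% Wilson interval 54.6 to 84.4), the highest share of QSC peaks among the 8 ranges. The 9 QSC-only peaks were 253 to 372 bp wide and the 9 FISC-only peaks 292 to 546 bp. FISC intervals were the wider at 17 of the 23 shared sites (73.9%, 53.5 to 87.5), and over the whole lists at 63.6%, which the interval includes. The widest QSC-only peak ran from 73239653 to 73240024 and the widest FISC-only peak from 73135774 to 73136319. The widest shared site ran from 72806475 to 72807186 (712 bp), with a QSC-only peak 2 bp beyond it, from 72807189 to 72807473. The largest groups were 4 groups of 3 sites. The group from 73026817 to 73030850 held 3 shared sites, that from 73109160 to 73122585 held 2 shared and 1 QSC-only site, and those from 72806475 to 72810896 and from 73239653 to 73245049 each held 1 site of every class. From 73518312 to the end of the range, over 182 kb, neither list had a peak.

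The Atf3 range (chromosome 1, 192.5 to 193.5 Mb) held 15 QSC and 21 FISC peaks, and 14 of the 21 were FISC-only. Its neighbours in the GRCm38.p6 gene order include Batf3, which encodes another AP-1 partner. There were 7 shared sites and 8 QSC-only peaks. FISC-only peaks thus made up 63.6% of the 22 state-only peaks (95% Wilson interval 43.0 to 80.3), the highest share of the 8 ranges, where the share over the whole lists was 45.8%. The interval includes that value. From -22.8 to 99.5 kb about the centre, 4 FISC-only peaks and no QSC peak were listed. Of these, the peaks from 193006312 to 193006618 and from 193007802 to 193008068 lay 6.5 and 7.9 kb from the centre. The widest FISC-only peak of the range, 589 bp, ran from 193099213 to 193099801. The widest QSC-only peak, 449 bp, ran from 192547717 to 192548165. The largest groups were 6 pairs of sites, among them a QSC-only and a FISC-only peak between 192518322 and 192519833. Neither list had a peak for 149.7 kb from 193237045. The widest QSC peak of all ranges was here, 1106 bp from 193399195 to 193400300, and its FISC partner measured 1029 bp.

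The Egr1 range (chromosome 18, 34.5 to 35.5 Mb) held 10 QSC and 9 FISC peaks, with 5 shared in each list. The remaining peaks were 5 QSC-only and 4 FISC-only. The shared sites included the widest site of the 8 ranges, 1130 bp from 34936192 to 34937321, where the FISC interval measured 995 bp and the QSC interval 474 bp. Near the centre, the shared sites at 35009785 to 35010270 and at 35019467 to 35020241 were followed by a FISC-only peak of 251 bp from 35021170 to 35021420. The next FISC-only peak, 423 bp from 35048448 to 35048870, was the widest of the range. The widest QSC-only peak measured 356 bp (34784578 to 34784933). Neither list had a peak in the first 198 kb of the range. No QSC-only peak lay between 34881337 and 35333347, and FISC listed no peak in the last 318 kb of the range.

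The Myc range (chromosome 15, 61.3 to 62.3 Mb) held 10 QSC peaks and 1 FISC peak. Of the grid windows, 25.6% held at most 1 FISC peak, and 26.7% held at least 10 QSC peaks. Both held for 6 of the 2589 windows. The single FISC peak, 265 bp from 61814813 to 61815077, was shared with a QSC peak of 268 bp, 15 kb to the right of the centre. A QSC-only peak ran from 61818664 to 61818925. The QSC peaks were narrow, between 249 and 347 bp, with a median of 270.5 bp. The whole QSC list had a median of 310 bp and a minimum of 245 bp. The widest QSC peak of the range was a QSC-only peak from 62146248 to 62146594. The narrowest FISC member of all ranges measured 248 bp, and the FISC list had a median of 372 bp. Neither list had a peak for 337 kb, from 61477829 to 61814812.

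**Figure D2:**
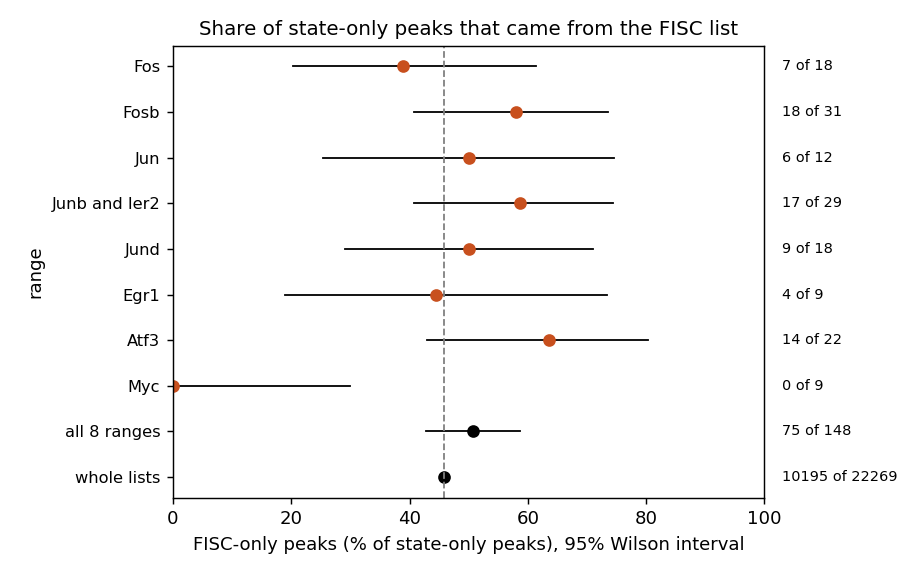
FISC-only peaks as a percentage of all state-only peaks (horizontal axis), with 95% Wilson intervals, for each of the 8 ranges, for all ranges together and for the whole lists (vertical axis), with the counts at the right. The dashed line marks the whole lists at 45.8%. The interval of the Myc range, 0 of 9, ends at 29.9%, and those of the other 7 ranges include the line.

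Taken over the 8 ranges, 75 of the 148 state-only peaks (50.7%, 95% Wilson interval 42.7 to 58.6) were FISC-only, and over the whole lists 45.8%. No range passed a test of whether its balance of state-only peaks departed from that of the genome. Fisher's exact test, two-sided, set the state-only peaks of a window against those of the rest of the genome in the 6 ranges and the grid windows that held at least 10 of them. After Benjamini-Hochberg adjustment over all 895 ranges and windows, 0 of the 6 ranges passed, where the background was 0%, and the adjusted p ran from 0.569 to 0.973. At an unadjusted p under 0.05, 0 of the 6 ranges passed, where the background was 10.1% (7.82% with more FISC-only and 2.23% with more QSC-only peaks). The p compares 2 lists and not replicated conditions. The Egr1 and Myc ranges held 9 state-only peaks each and were under the minimum. With a minimum of 5, the Myc range had an unadjusted p of 0.00493 and an adjusted p of 0.356 by the exact test.

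Close to the centres of the ranges more FISC-only than QSC-only peaks were listed, and the excess was smaller over a wider central part. In the central 10% of each range, 16 FISC-only and 7 QSC-only peaks were listed, so FISC-only peaks made up 69.6% (95% Wilson interval 49.1 to 84.4). In the outer part of the ranges there were 59 and 66, or 47.2% (38.7 to 55.9). In the central 50% of each range the share was 54.3% (44.2 to 64.0) of 94 state-only peaks, near the 50.7% of the full ranges. The central FISC-only peaks numbered 5 around Jun, 3 around Jund, 3 around Atf3, 2 around Egr1 and 1 each in the Fos, Fosb and Junb and Ier2 ranges, against 0 around Myc. FISC-only peaks were in excess in 4 ranges (Jun, Jund, Atf3 and Egr1), QSC-only peaks in 2 (Junb and Ier2, and Myc), and the numbers were equal in 2 (Fos and Fosb). Without the Jun range the share was 64.7% (41.3 to 82.7) of 17 peaks, and without the Junb and Ier2 range, which serves 2 genes, 75% of 20. The central part was chosen after the positions were seen, and the difference from the outer part was not tested. Its interval for all 8 ranges reaches below 50% but not to the 45.8% of the whole lists. It includes the 56.7% of the grid windows with 21 to 40 peaks and the 62.6% of those with 41 or more. It does not reach the 45.8% of the windows with 11 to 20 peaks. The ranges differ in density. The Jun range, with 5 of the 16 central FISC-only peaks, held 7 peaks in each list, and the Jund range, with 3, held 32. The central part also held 21 shared peaks of each list, and the part of density in its FISC-only share was not tested. Gene coordinates in mm9 were not used here, so the centre is a point of the range and not the start of a gene.

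Pooled over the 8 ranges, the widths of the peaks followed the classes. In the QSC list the Fos range went the other way, with medians of 356 bp for QSC-only and 345 bp for shared peaks. So did the Myc range, with 273 bp for QSC-only peaks and 268 bp for its 1 shared peak. The other ranges followed the pooled order in the QSC list. Shared QSC members had a median width of 378 bp (95% order-statistic interval 356 to 414) and QSC-only members 294 bp (276 to 308). The medians over the whole QSC list were 359 and 291 bp. Shared FISC members had a median of 420.5 bp (399 to 435) and FISC-only members 348 bp (322 to 380), and over the whole FISC list the medians were 412 and 344 bp. Wide peaks were mostly shared in the ranges and in the whole lists. Of 25 QSC members that were at least 469 bp wide, the widest 10% of the list, 24 were shared (96%, 95% Wilson interval 80.5 to 99.3), and the exception was the peak of the Fos range named above. Over the whole QSC list 77.6% of peaks of this width were shared. Of 22 FISC members at least 517 bp wide, 18 were shared (81.8%, 61.5 to 92.7) and 4 were FISC-only, and over the whole FISC list 68.6% were shared. The 4 lay around Junb and Ier2 (624 and 622 bp), Atf3 (589 bp) and Jund (546 bp). The part of density in the shares of wide peaks was not tested.

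**Figure D3:**
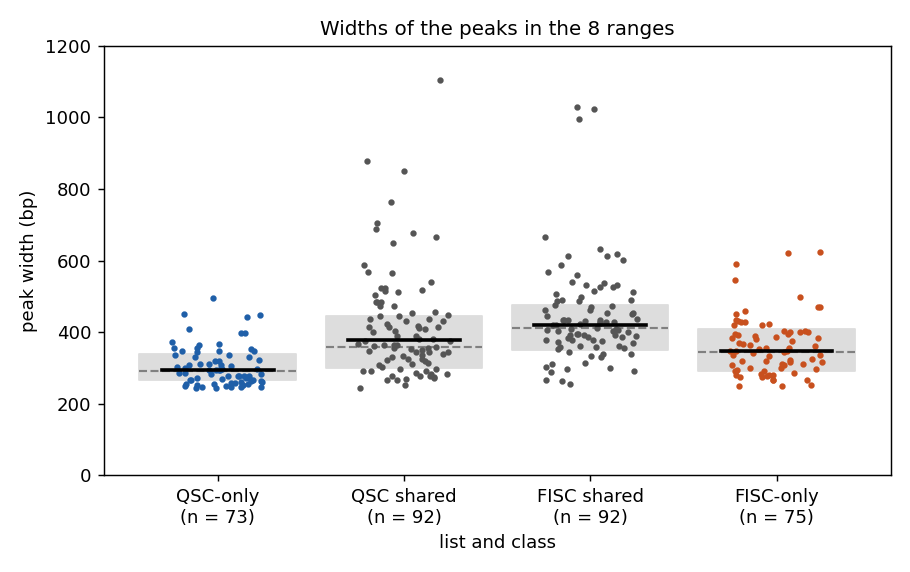
Width in bp (vertical axis) of each peak in the 8 ranges by list and class (horizontal axis). Points are peaks, black bars their medians, and grey bands and dashed lines the quartiles and medians of the same class over the whole lists. Shared peaks have medians of 378 bp in QSC and 420.5 bp in FISC, above those of the state-only peaks, 294 and 348 bp.

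At the 92 shared sites the midpoints of the QSC and FISC intervals lay a median of 57.2 bp apart (95% order-statistic interval 44 to 73), and over all such sites of the genome 54 bp. They were within 100 bp at 68 of the 92 sites (73.9%), close to the 75.8% of the whole lists. FISC intervals exceeded their QSC partners in width at 57 of the 92 sites (62.0%, 95% Wilson interval 51.7 to 71.2), where the whole lists had 63.6%. The median log2 ratio of the FISC to the QSC width was 0.14 (0.04 to 0.23). The site with the largest change towards QSC lay around Fosb, where a QSC interval of 763 bp from 20382570 to 20383332 met a FISC interval of 329 bp that began at the same base. The largest change towards FISC lay around Junb and Ier2, where a FISC interval of 587 bp from 86711107 met a QSC interval of 276 bp. The width of an interval is only a stand-in for the strength of binding.

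Pooled, state-only peaks of the ranges lay nearer to shared peaks than those of the genome at large. The ranges were also denser, with 19.9 QSC and 20.1 FISC peaks per Mb against 7.49 and 6.77 over the whole lists. The part of density in the distances was not tested. The median distance was 17.6 kb for the 75 FISC-only and 33.7 kb for the 73 QSC-only members, and over the whole lists 63.5 and 164 kb. Within 10 kb of a shared peak lay 29 FISC-only members (38.7%) and 19 QSC-only members (26.0%), where the whole lists had 15.9% and 7.92%. The medians of the ranges were lowest around Fosb, at 5.21 kb for QSC-only and 5.68 kb for FISC-only peaks. They were highest around Myc for QSC-only peaks, at 331 kb, and around Jun for FISC-only peaks, at 224 kb, where QSC-only peaks had 177 kb. Each of these medians was above that of its class over the whole lists.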

How the data were processed

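CTCF ChIP-seq peaks of 2 states were used, QSC and FISC, with 2 ChIP libraries and 1 input library per state. Each state has 1 deposited list of chromosome, start and end, in which the authors gave no header, score or other value per peak. Per the submitters' processing notes, the build is mm9 and the tools include Bowtie2 2.2.3, Picard, MACS2 and HOMER. Whether libraries were pooled before peaks were called is not given in the sources used here, and depth is unknown. Positions are printed counting from 1.

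Python 3.11.15 with scipy 1.17.1 and numpy 2.4.6 gave the members, classes, widths, distances and groups. A range holds the peaks whose midpoint lies in it. Sites are the unions of overlapping intervals of both lists. Shares carry Wilson intervals and medians order-statistic intervals, both covering counting error only. The grid runs from the first to the last listed peak of 20 chromosomes. The Fisher test, Benjamini-Hochberg adjusted, compares 2 lists and not replicated conditions. The sharing rule and the Fisher test were run on simulated data. The simulated windows were rich in peaks and strongly one-sided, so they do not show the power of the test in these ranges. Members and lists were chosen with earlier results of these data known. In each range the text names the widest peak of each class, the largest group of sites under 10 kb apart and the longest empty stretch. Other peaks were named after their values were seen. Of 27 immediate early and AP-1 genes listed for neighbours, 3 lay within 3 protein-coding genes of a member. Distances to gene starts were not analysed here.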

Additional observations from a re-analysis of the deposited data

How the results depend on the processing

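Of 85 alternative values, 76 stayed within the 95% interval of the share or median or within 1.5 times the count or density. Several settings could hardly move a value. Leaving out 1 range keeps most of the same peaks, and membership by any overlap gave the same densities. Shared peaks fell from 55.8% to 41.2% of QSC members and from 55.1% to 40.7% of FISC members when midpoints within 100 bp were required, where the whole lists gave 28.5% and 31.5%. With the wider 50% of each list, the peaks per Mb fell to 6.87 for shared peaks in either list, 4.70 for QSC-only and 5.18 for FISC-only peaks, since fewer peaks were left. The FISC-only share of state-only peaks was 69.6% in the central 10% of each range, an alternative chosen after seeing the data, and its cause was not tested. Over the full ranges this share was 50.7%, and between 48.4% and 54.0% with each range left out in turn. In the 6 ranges other than Fosb and Jund, also chosen after seeing the data, shared peaks made up 42.7% of QSC and 44.2% of FISC members. No range passed Fisher's exact test under any of the 5 alternatives tried for it, where at most 1 range had an unadjusted p under 0.05. A stricter threshold could not be set without scores. No paired analysis was possible because the peak lists carry no replicate values, and leaving out replicates was likewise not run. Unknown depth limits every statement on a peak found in 1 list.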
